A study of Mus musculus with 14 samples.

Results

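Resident alveolar macrophages live on the air side of the alveolus, where they clear inhaled particles and spent surfactant. Their identity depends on the growth factor GM-CSF, whose signal induces the nuclear receptor PPARγ, and through it genes for lipid uptake and handling. They differ from the macrophages of the lung interstitium and from recruited monocytes in their surface receptors, carrying the sialic acid lectin Siglec-F and the integrin CD11c, and little of the integrin CD11b. The genes described here are 10 that are known from this cell type, chosen by name among the 52550 genes of the count table. Their own values were not used for the choice, but it was known from earlier results that leukocyte RNA varied between these tumors. The 10 are the receptor genes Marco, Siglecf, Mrc1 and Itgax, the lipid and surface enzyme genes Pparg, Fabp4 and Car4, the secreted protein genes Chil3 and Ear2, and the keratin gene Krt79. All 10 passed the expression filter and are among the 16836 genes tested.

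RNA was sequenced from 6 KPY-Ctrl and 8 KPY-Setd2KO lung adenocarcinomas of mice. Both groups shared their germline alleles, among them Trp53 flox/flox and Rosa26 LSL-YFP/LSL-YFP, on a mixed B6J/129S4vJae background, and tumors were started by a lentivirus given into the trachea that delivered Cre, Cas9 and a guide RNA. The guide targeted Setd2, whose enzyme adds the trimethyl mark to H3K36, in KPY-Setd2KO, and β-galactosidase (sgBGal) in KPY-Ctrl. Tumors were started in mice of at most 20 weeks of age, and the time from infection to harvest is not given in the sources used here. Tumors were matched for stage, dissected, digested and sorted for live cells with yellow fluorescent protein (YFP), which marks cells in which Cre has acted. The promoter that drives Cre in the virus is not given in the sources used here, so the cell types in which it can act are not known from them. An antibody gate against leukocytes is described for the flow cytometry but is not stated for the RNA sort. The study's text gives fewer mice than tumors, so some tumors shared a mouse, which is not given per tumor, and every p-value treats tumors as independent.

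Total counts ran from 20072236 to 51828846 per tumor. Levels are given as CPM, the count of a gene divided by the library size of its tumor in the usual per-library unit, with library sizes scaled by the TMM method. The targeted gene, Setd2, lay at 41.9 to 63.6 CPM among the 6 control tumors and at 17.95 to 47.4 CPM among the 8 others, so that its ranges overlapped. Its log2 fold change in KPY-Setd2KO was -0.74 (edgeR unadjusted p = 0.00486, adjusted p = 0.175). With the leukocyte-marker score, defined below, in the fit it was -0.83 (edgeR adjusted p = 0.0262). Leukocyte RNA differed between tumors of the same genotype. A leukocyte-marker score, the mean log2 CPM of 12 genes that hold none of the 10, spanned 3.52 to 8.41 over the KPY-Ctrl tumors, and for KPY-Setd2KO it spanned 3.25 to 8.71. It left a gap between 5.43 and 7.92, with 7 tumors on either side. KPY-Ctrl replicates 1, 2 and 6 and KPY-Setd2KO replicates 1, 2, 3 and 4 lay above the gap, and KPY-Ctrl 3, 4 and 5 and KPY-Setd2KO 5, 6, 7 and 8 lay below it. These sets come from measured values and are not conditions of the study. A gene that follows the score differs between the sets by construction, and the share of all genes without overlap was not counted. In sorted bulk RNA, fewer cells of a type and less RNA per cell cannot be told apart.

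The promoters of the receptor genes Marco, Siglecf, Mrc1 and Itgax and of the keratin gene Krt79 are shown. Each is the 250 bases before the RefSeq transcription start on GRCm38.p6, read 5′ to 3′ on the strand of the gene. Chil3, Car4 and Ear2, whose promoters are not shown, moved with the receptor genes, at r of 0.995, 0.987 and 0.983 with Siglecf. Capitals mark GAGGAA or its reverse complement, a core recognised by the myeloid factor PU.1, and in Itgax the reverse complement of TGACTCA, bound by AP-1.

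Marco, chr1:120505025-120505274, strand -: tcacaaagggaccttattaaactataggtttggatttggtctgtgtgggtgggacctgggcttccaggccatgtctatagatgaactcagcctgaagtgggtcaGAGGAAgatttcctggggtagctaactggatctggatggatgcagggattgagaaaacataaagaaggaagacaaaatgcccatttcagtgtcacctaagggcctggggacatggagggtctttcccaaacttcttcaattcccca
Siglecf, chr7:43351091-43351340, strand +: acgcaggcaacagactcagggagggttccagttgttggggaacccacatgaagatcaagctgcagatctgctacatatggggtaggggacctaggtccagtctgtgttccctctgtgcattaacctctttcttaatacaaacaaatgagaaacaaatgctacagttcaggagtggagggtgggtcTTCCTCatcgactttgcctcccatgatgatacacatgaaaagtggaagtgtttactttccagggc
Mrc1, chr2:14229164-14229413, strand +: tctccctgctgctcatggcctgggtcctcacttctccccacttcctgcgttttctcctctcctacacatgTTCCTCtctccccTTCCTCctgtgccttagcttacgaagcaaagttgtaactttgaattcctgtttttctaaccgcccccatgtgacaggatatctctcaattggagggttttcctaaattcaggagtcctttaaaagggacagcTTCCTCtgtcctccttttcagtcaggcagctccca
Itgax, chr7:128129300-128129549, strand +: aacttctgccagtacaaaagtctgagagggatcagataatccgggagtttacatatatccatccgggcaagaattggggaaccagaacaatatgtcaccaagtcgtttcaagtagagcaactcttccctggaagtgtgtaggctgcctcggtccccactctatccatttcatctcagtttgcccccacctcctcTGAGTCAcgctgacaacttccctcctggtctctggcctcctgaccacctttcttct
Krt79, chr15:101940325-101940574, strand -: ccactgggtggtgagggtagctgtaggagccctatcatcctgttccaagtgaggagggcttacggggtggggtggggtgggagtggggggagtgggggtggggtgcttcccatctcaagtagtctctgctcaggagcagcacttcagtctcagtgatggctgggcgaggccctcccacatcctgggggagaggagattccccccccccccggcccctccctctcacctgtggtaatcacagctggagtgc

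GAGGAA was found on either strand in 1 copy before Marco and Siglecf and in 3 copies before Mrc1. It was also present in 1 of the 3 Pparg promoters, and 23.3% of 32851 promoters of this length held it. TGACTCA was found before Itgax alone among the members with a promoter sequence, against 4.46% of all promoters. The nuclear receptor motif AGGTCA was found in 2 Pparg promoters, against 14% of all, and no other member held it. Chil3, Car4, Ear2 and Krt79 held none of these 3 motifs in this window. The motifs searched do not overlap each other, and a match is a description of letters only. The gene bodies of the members whose promoters are not shown lie on GRCm38 at chr6:115360951-115490399 (Pparg), chr3:10204088-10208576 (Fabp4), chr11:84957786-84966044 (Car4), chr3:106147554-106167564 (Chil3) and chr14:44102654-44103534 (Ear2), and all 10 members are annotated as protein-coding genes.

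Taken as a sum, the 10 genes reached 5.29% of all counts in KPY-Setd2KO replicate 2 and 0.0392% in KPY-Setd2KO replicate 5. In KPY-Ctrl the sum ran from 0.0656% in replicate 3 to 3.40% in replicate 1. The tumors above the gap held between 1.69% and 5.29%, and those below it between 0.0392% and 0.171%, so the ranges lay far apart in both genotypes. Exact binomial 95% intervals of these shares are narrow, 5.28% to 5.30% for the highest and 0.0386% to 0.0398% for the lowest, and cover counting error only. Per kilobase of transcript, Chil3 took the largest share of the summed member level in every tumor, from 45.2% to 83.4%. Without Chil3, the other 9 genes still summed to between 191 CPM and 10810 CPM.

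Marco, a class A scavenger receptor that binds inhaled particles and bacteria, ranged most widely of the receptor genes. Its level in KPY-Ctrl was 9.54 CPM in the lowest tumor, 102 CPM at the median and 941 CPM in the highest. In KPY-Setd2KO it was 8.08 CPM at the lowest, 331 CPM at the median and 1696 CPM at the highest. The ranges of the genotypes overlapped. Tumors above the gap in score held at least 188 CPM of Marco and those below it at most 61.5 CPM. Within the higher tumors Marco still spread 9.02-fold, from KPY-Ctrl 6 up to KPY-Setd2KO 4.

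Siglecf, which encodes the lectin used to recognise alveolar macrophages and eosinophils, was less abundant. In KPY-Ctrl its lowest, median and highest levels were 2.97, 45.4 and 215 CPM. In KPY-Setd2KO they were 2.53, 116 and 295 CPM. The 7 higher tumors lay between 84.8 and 295 CPM and the 7 lower ones between 2.53 and 11.3 CPM, without overlap.

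Mrc1, the mannose receptor CD206 that removes glycoproteins, ran in KPY-Ctrl from 19.5 CPM through a median of 440 CPM to 1367 CPM. In KPY-Setd2KO it ran from 28.5 CPM through 783 CPM to 2583 CPM. The lower tumors reached at most 66.2 CPM and the higher ones began at 833 CPM. The microRNA gene Mir511 lies within Mrc1 on the same strand.

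Itgax, the gene of CD11c, was the member that stayed closest to the general macrophage gene Cd68. Its levels in KPY-Ctrl were 29.0 CPM at the lowest, 476 CPM at the median and 1260 CPM at the highest. In KPY-Setd2KO the same points were 22.1, 601 and 2064 CPM. Its log2 ratio to Cd68 had an SD of 0.27 over the 14 tumors, the smallest of the 10 members, against 1.70 for Krt79. The related integrin gene Itgad shares 5.01% of the 75-base windows of Itgax, so a small part of its counts is uncertain.

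Pparg encodes the lipid-sensing receptor that directs alveolar macrophage maturation. It had the narrowest range of the 10. KPY-Ctrl tumors held 41.4 CPM at the lowest, 107 CPM at the median and 318 CPM at the highest. KPY-Setd2KO tumors held 19.2 CPM at the lowest, 133 CPM at the median and 343 CPM at the highest. All 3 lower KPY-Ctrl tumors (41.4, 41.7 and 52.6 CPM) lay above all 4 lower KPY-Setd2KO tumors (19.2, 26.3, 28.6 and 34.2 CPM). That order was seen in the values and not tested, and how many of all genes show such an order was not counted. Between genotypes over all tumors, Pparg was not called (log2 fold change 0.16, edgeR adjusted p = 0.955). Against Cd68, Pparg stood at a log2 ratio 2.26 above its own median in KPY-Ctrl 3 and 1.62 above it in KPY-Setd2KO 5, the 2 tumors with the lowest leukocyte-marker scores. An antisense gene, Gm44079, overlaps Pparg, and without a settled library strand their reads cannot be told apart.

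Fabp4, a fatty acid carrier regulated by PPARγ, ranged from 5.17 CPM to 220 CPM in KPY-Ctrl with a median of 79.2 CPM. In KPY-Setd2KO it ranged from 7.90 CPM to 724 CPM with a median of 86.8 CPM. KPY-Setd2KO replicates 2, 3 and 4, at 724, 439 and 255 CPM, lay above every KPY-Ctrl tumor, and the other 5 lay within the KPY-Ctrl range. This was seen in the values and not tested, and how many of all genes show it was not counted. The leukocyte-marker scores of these 3 tumors were 8.71, 8.49 and 8.63, against at most 8.41 in KPY-Ctrl. Between genotypes over all tumors, Fabp4 was not called (log2 fold change 1.17, edgeR adjusted p = 0.720). Car4, a membrane-bound carbonic anhydrase, was steadier among the higher tumors, at 685 to 1478 CPM. Its lower tumors held 20.7 to 99.1 CPM. In KPY-Ctrl its median was 392 CPM and in KPY-Setd2KO 539 CPM.

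Chil3, also called Ym1, is a chitinase-like protein that alveolar macrophages secrete in quantity. It was the most abundant member in every tumor. In KPY-Ctrl its level was 240 CPM in the lowest tumor, 6846 CPM at the median and 30080 CPM in the highest. In KPY-Setd2KO it was 142, 11880 and 52900 CPM at the same points. The 372-fold range over the 14 tumors was the widest of the members. Of its 75-base windows 13.0% are shared with Chil4 and Gm6522, and the counts of KPY-Ctrl 1 and KPY-Setd2KO 2 were deposited with 3 digits only. Chil4 itself was at most 227 CPM, in KPY-Setd2KO 6, where Chil3 was 352 CPM.

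Ear2 encodes an eosinophil-associated ribonuclease that alveolar macrophages also make. KPY-Ctrl tumors ran from 20.4 CPM through a median of 536 CPM to 1603 CPM. KPY-Setd2KO tumors ran from 21.6 CPM through 1072 CPM to 2254 CPM. All 4 higher KPY-Setd2KO tumors, at 1953 to 2254 CPM, lay above all 3 higher KPY-Ctrl tumors, at 1007 to 1603 CPM. This order was noticed in the values and not tested, and the share of all genes with such an order was not counted. Between genotypes over all tumors, Ear2 was not called (log2 fold change 0.73, edgeR adjusted p = 0.852). Ear2 shares 23.4% of its windows with Ear10, Ear1 and related pseudogenes and is overlapped on the opposite strand by Gm49101, so its level is uncertain.

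**Figure D1:**
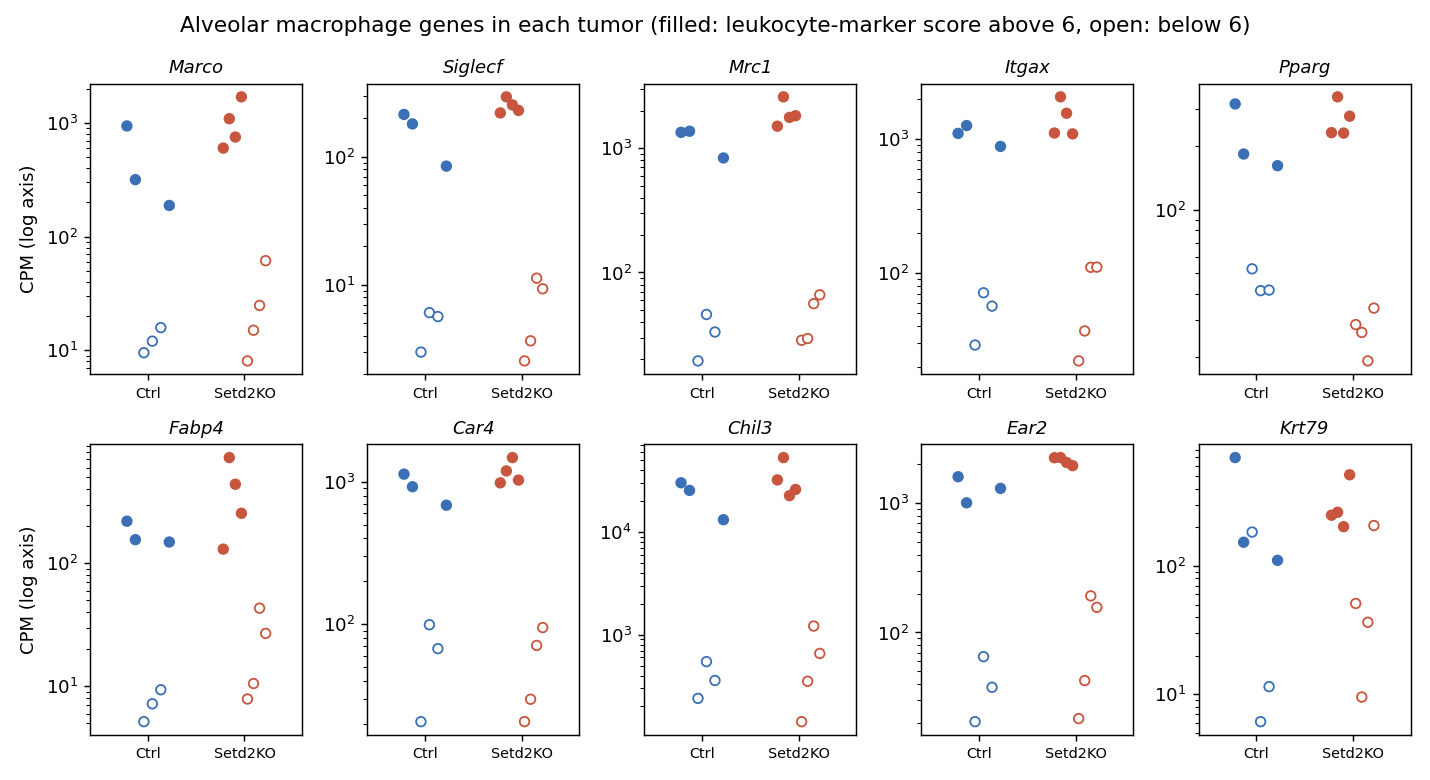
Level of each member in CPM (log axis) in 6 KPY-Ctrl and 8 KPY-Setd2KO tumors, 1 point per tumor, filled where the leukocyte-marker score lay above the gap and open where it lay below. The genotypes overlap for every member, and filled and open points do not overlap except for Krt79, where open points reach 206 CPM and filled points begin at 111 CPM. The sets were cut on the score, and Cd68 and Csf1r did not overlap between them either. The share of all genes without overlap was not counted.

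Krt79, a type II keratin that is otherwise known from skin and hair follicle epithelium, departed from the other members in 3 of the lower tumors. Its level in KPY-Ctrl was 6.11 CPM at the lowest, 132 CPM at the median and 699 CPM at the highest. In KPY-Setd2KO it was 9.50, 204 and 513 CPM. KPY-Ctrl 3 held 184 CPM and KPY-Setd2KO 8 held 206 CPM, both within the range of the higher tumors, and KPY-Setd2KO 5 held 51.0 CPM. The other 4 lower tumors held 6.11, 9.50, 11.5 and 36.4 CPM. Relative to Cd68, Krt79 stood 4.26 log2 units above its own median in KPY-Ctrl 3, 2.86 in KPY-Setd2KO 8 and 2.66 in KPY-Setd2KO 5. In the same order of tumors, Siglecf was 2.97, 9.29 and 2.53 CPM.

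**Figure D2:**
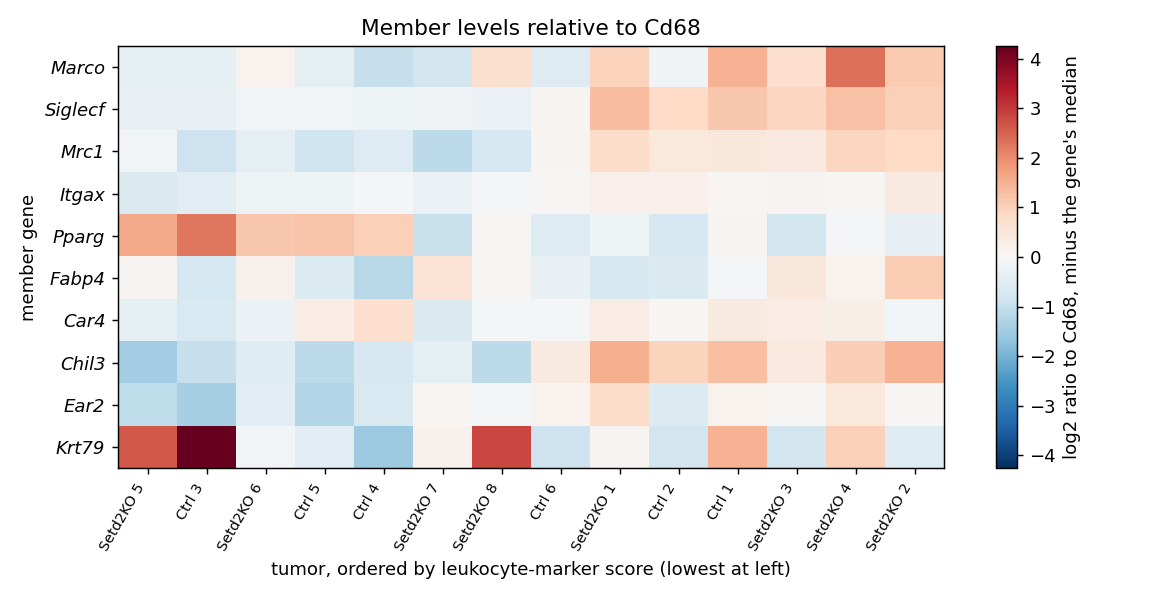
Log2 ratio of each member (rows) to Cd68 in each of the 14 tumors (columns, from the lowest leukocyte-marker score at left), minus the median ratio of that gene, with red above and blue below the median. Krt79 is deepest red at 4.26 in KPY-Ctrl 3, Pparg is above its median in the 5 tumors with the lowest scores, and Itgax stays between -0.604 and 0.387.

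Per kilobase of transcript, the order of the members over the 14 tumors can be compared between genes. The length was that of the longest transcript tagged as principal in the annotation, or else of the longest coding one. It was 896 bases for Fabp4, against 4489 for all its exons joined, and 2097 against 4753 for Krt79. Places in the order can therefore depend on this choice. The median level was highest for Chil3, at 4665 CPM per kilobase, followed by Ear2 at 834 and Car4 at 312. Itgax came next at 122 CPM per kilobase, then Fabp4 at 96.9, Mrc1 at 83.7 and Krt79 at 80.2. Marco at 64.8, Pparg at 60.7 and Siglecf at 18.4 CPM per kilobase were the lowest. The ranges of neighbours in this order overlapped widely, since each gene varied 17.8-fold or more between tumors.

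The genotype comparison asked whether Setd2 loss went with a change of these genes. By edgeR's quasi-likelihood test, no member passed an adjusted p of 0.05 with a log2 fold change over 1, and 0% of all tested genes did. At an unadjusted p under 0.05, again 0 of the 10 were higher or lower in KPY-Setd2KO, against 6.93% of all genes higher and 6.8% lower. DESeq2 called none of the 10 either, although it called 443 genes in all, and limma voom called 0 of each. Fabp4 had the largest difference, a log2 fold change of 1.17 (standard error 1.12, adjusted p = 0.720), and Marco followed at 1.10 (standard error 1.29, adjusted p = 0.785). For Chil3 the difference was 0.55 (standard error 1.35, adjusted p = 0.907) and for Krt79 it was -0.02 (standard error 0.93, adjusted p = 0.996). The remaining 6 lay between 0.16 for Pparg and 0.73 for Ear2, and the median over the 10 was 0.59 against 0.03 over all tested genes. That median was 1.10 without KPY-Ctrl 1 and 0.22 without KPY-Setd2KO 2, and 0.04 once the leukocyte-marker score was in the fit. With standard errors of 0.75 to 1.35 on the log2 scale, a difference of several fold could have been missed, so the comparison does not show that the genotypes had the same level.

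Once the leukocyte-marker score was added to the genotype fit, no member passed the thresholds, against 2.21% of all genes. Fabp4 then had a log2 difference of 0.85 (standard error 0.27, edgeR unadjusted p = 0.00704, adjusted p = 0.0749), and Ear2 one of 0.43 (standard error 0.17, edgeR unadjusted p = 0.0227, adjusted p = 0.138). Pparg, Car4, Krt79 and Itgax had negative differences in that fit, of -0.38, -0.31, -0.32 and -0.07.

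The second comparison asked how each member moved with leukocyte RNA across the 14 tumors, with genotype in the fit. By the edgeR test, all 10 rose with the score at an adjusted p under 0.05, against 28.4% of all tested genes. Scaled by library size alone, 9 of the 10 rose, against 18.7% of all genes that rose and 40.2% that fell. The slope is the change in log2 expression for a rise of 1 in the score. Chil3 had the steepest, 1.45 (standard error 0.07, adjusted p = 1.67e-10), and Krt79 the shallowest, 0.50 (standard error 0.18, adjusted p = 0.0273). Among the receptors the slope was 1.30 for Marco, 1.27 for Siglecf, 1.25 for Mrc1 and 1.12 for Itgax. Ear2 had a slope of 1.22, Fabp4 1.09 and Car4 1.08, and that of Pparg was 0.63. The median over the 10 was 1.17, against -0.01 over all genes.

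Because the score fell into separate sets of tumors, these slopes rest largely on the gap between them. Fitted within the 7 tumors below the gap, 6 of the 10 rose, namely Siglecf, Itgax, Fabp4, Car4, Chil3 and Ear2, against 1.06% of all genes tested in that fit, while the slope was 1.05 for Marco, 0.64 for Mrc1, 0.30 for Krt79 and -0.09 for Pparg. Within the 7 above it, where the score spans only 7.92 to 8.71, 0 passed the threshold in edgeR's test, and 0% of all genes rose in that fit (2258 genes of either direction at an unadjusted p under 0.05). The call for Krt79 was lost when any of KPY-Ctrl 1, KPY-Setd2KO 4, KPY-Setd2KO 5 or KPY-Setd2KO 6 was left out, with slopes of 0.39, 0.46, 0.52 and 0.45.

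**Figure D3:**
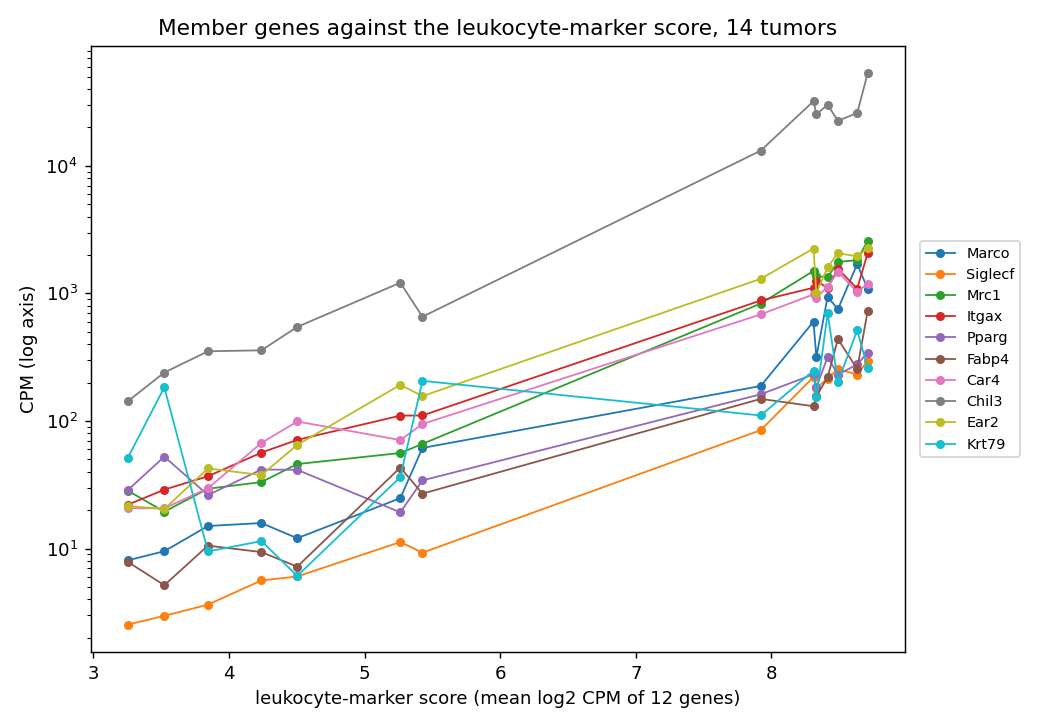
Level of each member in CPM (log axis) against the leukocyte-marker score of the tumor, 1 line per gene and 1 point per tumor, 14 tumors. The 7 tumors with scores of 5.43 or less and the 7 with 7.92 or more form separate sets, and all lines but that of Krt79 are higher throughout the second set.

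The slope did not differ between genotypes at the threshold for any member, against 0.451% of all genes that did. The largest difference, that of Pparg, was 0.18 steeper in KPY-Setd2KO (standard error 0.12, adjusted p = 0.640), followed by Krt79 at 0.16 (standard error 0.34) and Car4 at 0.13 (standard error 0.09).

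Other genes of the alveolar macrophage program moved with the members. All 20 of a list of such genes rose with the score, against 28.4% of all tested genes, with a median slope of 1.02. The list included Csf2ra and Csf2rb, which encode the GM-CSF receptor, with slopes of 0.94 and 1.10. Lpl, the lipoprotein lipase gene, had a slope of 1.11, the cholesterol exporter gene Abcg1 1.16 and the sialoadhesin gene Siglec1 1.18. Ear1, a close relative of Ear2, had the steepest at 1.45. Ear1 and Ear10, another gene of the 20, share 75-base windows with the member Ear2, and Ear10 had a mean of only 0.27 CPM. Fabp5, another fatty acid carrier, and Cd9, a tetraspanin that is abundant in many cells, had shallow slopes of 0.45 and 0.33. None of the 20 was called between genotypes.

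All 10 genes of a pan-macrophage list also rose, with a median slope of 1.07, led by Adgre1, the gene of F4/80, at 1.28. Lyz2, the lysozyme gene, which alveolar type 2 cells also express, rose by 0.72 per unit. Of 18 genes known from interstitial macrophages or monocytes, 15 were tested, of which 5 rose and 1 fell. Among all tested genes 28.4% rose and 28.5% fell, so the count that rose lay near that share. The 5 were Gpnmb at 1.19, Trem2 at 0.94, Ms4a7 at 0.89, Ccr2 at 0.74 and Itgam, the gene of CD11b, at 0.61, and the gene that fell was the monocyte gene Ly6c2 at -0.50. C1qa, a complement gene of interstitial macrophages, had a slope of 0.44 (adjusted p = 0.186, edgeR) and reached 114 CPM in KPY-Ctrl 2 and 62.3 CPM in KPY-Setd2KO 8 against a median of 8.87 CPM. Itgam was highest in KPY-Ctrl 2, at 34.6 CPM, where Itgax was 1260 CPM. Cd163 and Folr2, also of this list, stayed at or under 0.608 and 0.516 CPM in every tumor. Other genes of the list were far higher in KPY-Ctrl 2, with C1qb at 93.7, Ccr2 at 71.9 and Arg1 at 142 CPM. Pf4 was the gene of this list with the smallest p between genotypes, with a log2 fold change of -1.64 (unadjusted p = 0.00113, adjusted p = 0.129, edgeR). Apoe followed at -1.57 (unadjusted p = 0.00395, adjusted p = 0.165, edgeR).

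The summed level of this interstitial and monocyte list was 1487 to 2384 CPM in the tumors above the gap and 151 to 1327 CPM in those below it. Below the gap, KPY-Ctrl tumors held 818 to 1327 CPM and KPY-Setd2KO tumors 151 to 744 CPM, an order that was seen in the values and not tested. How many of all genes show such an order was not counted. Much of a sum can come from 1 gene, since Apoe held 1139 of 1309 CPM in KPY-Ctrl 5. Over all tumors Apoe had a mean of 673 CPM in KPY-Ctrl and 226 CPM in KPY-Setd2KO. C1qa went the other way, with medians of 2.71 and 18.8 CPM. The median log2 fold change of the 15 tested genes was -0.10. The most abundant genes of the list were Gpnmb and Apoe, the apolipoprotein E gene. Gpnmb lay at 872 to 1863 CPM above the gap and 19.7 to 101 CPM below it. Apoe lay at 228 to 628 CPM above and 59.3 to 1139 CPM below, with a slope of -0.08 (adjusted p = 0.588, edgeR). Over the same tumors the 10 members summed to 17540 to 63710 CPM and to 333 to 1778 CPM. Whether any cell other than an alveolar macrophage supplied part of the member RNA was not tested.

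Siglecf and Ear2 are also known from eosinophils, so the eosinophil genes were read beside them. Epx was at 0 in every tumor, and Prg2, Ccr3 and Il5ra did not exceed 0.263 CPM. Ear6 was the only tested gene of this list of 5, with a slope of 0.94 and at most 36.4 CPM. Itgax is shared with dendritic cells, whose list of 6 summed to between 1.012 and 7.05 CPM, with Flt3 at most 0.41 CPM and 2 genes tested, neither of which passed. Neutrophil genes summed to 4.17 to 61.7 CPM, with 2 of 5 tested genes rising, Csf3r and S100a8, and Retnlg falling. Lymphocyte genes summed to 4.32 to 21.0 CPM, with 0 of 3 rising and Cd79b falling. For comparison, 28.4% of all tested genes rose and 28.5% fell.

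Of the other lists, 1 of 8 endothelial genes rose, Vwf with a slope of 0.75. That list summed to 79.5 to 142 CPM in the tumors above the gap and to 16.5 to 67.1 CPM in those below it. Of 6 fibroblast genes 1 rose, Pdgfra, whose mean was 0.55 CPM. Both counts stand against 28.4% of all tested genes that rose. All 8 epithelial genes fell as the score rose, with a median slope of -0.43, against 28.5% of all tested genes that fell. They summed to 20690 to 60860 CPM in the tumors below the gap and to 5567 to 21680 CPM in those above it. The markers that define epithelium, the tissue of the labelled adenocarcinoma, were thus present in every tumor. Krt8 and Krt18, the keratins of simple epithelium, were highest among the lower tumors, at up to 2113 and 2418 CPM. Krt79 did not share their direction.

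**Figure D4:**
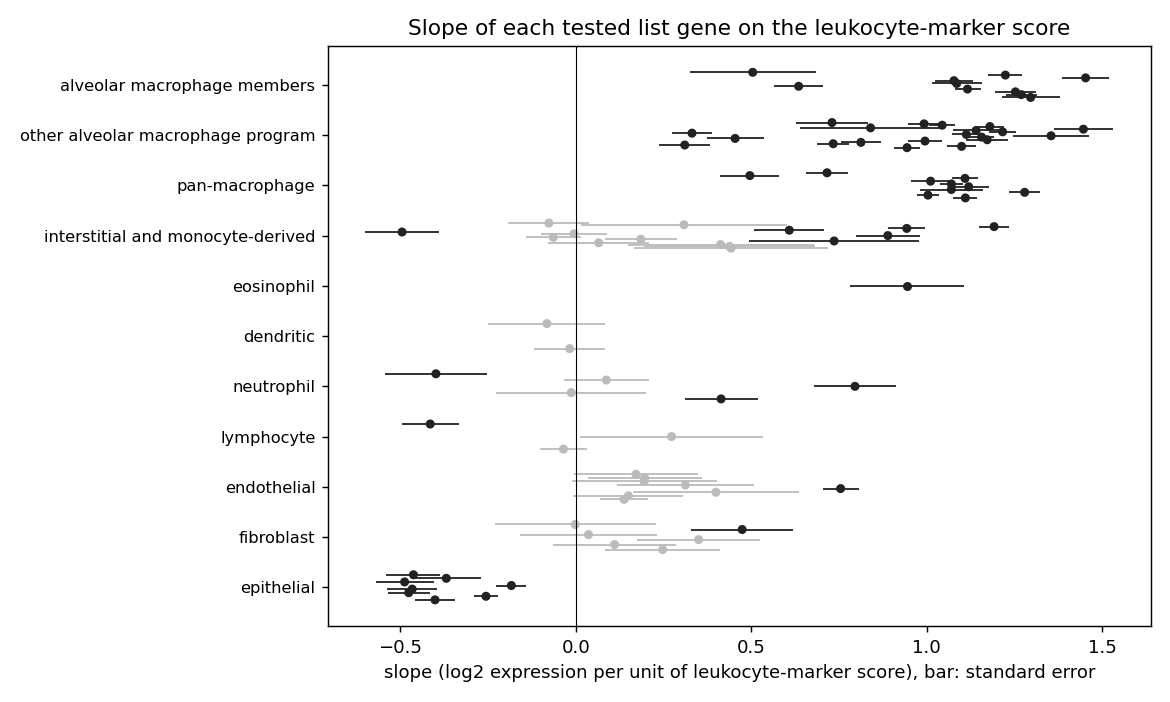
Slope on the leukocyte-marker score (log2 expression per unit of score) of every tested gene of the 11 lists, with the standard error as a bar, black where the adjusted p was under 0.05 and grey otherwise. All 10 members and all 20 other alveolar macrophage program genes lie to the right of 0 in black, and all 8 epithelial genes lie to the left.

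The genes whose log2 CPM ran most like each member were found among all tested genes outside the 10, by Pearson's r over the 14 tumors. These r values are descriptions, since the tumors form separate sets and share their depth and composition, so that any gene following the gap scores high. Itgax was matched most closely by Cd68, a lysosomal macrophage protein gene, at r = 0.999, and Siglecf by Cd33, another sialic acid lectin gene, at 0.998. Mrc1 was nearest to Psap, a lysosomal prosaposin gene, at 0.996, and Ear2 to AI662270 at 0.996. Chil3 was nearest to Lair1 and Car4 to Scimp, each at 0.995. Fabp4 was nearest to Klhdc4 and Pparg to Mthfsl, each at 0.991, and Marco to Rxra, the gene of the retinoid receptor RXRα, at 0.990. For Krt79 the closest was Arhgap45 at 0.929, the lowest best match of the 10.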

How the data were processed

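RNA was measured in 6 KPY-Ctrl and 8 KPY-Setd2KO tumors by 75-base single-end sequencing. Estimated counts for each Ensembl gene, as whole numbers and without normalization, were deposited by the authors, who made them with Salmon 0.8.2 against GRCm38.p5 according to the submitters' processing notes. The labels describe RNA from cell lines and other kits than the study's methods, which are followed here. No column was left without a sample (0 unused). Symbols for 99.7% of identifiers, coordinates and transcript lengths came from the GENCODE annotation of GRCm38.

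Counts were tested with edgeR 4.0.16 in R 4.3.3 (TMM, expression filter, robust quasi-likelihood test, Benjamini-Hochberg adjustment over all genes tested), at an adjusted p under 0.05 and, between genotypes, an absolute log2 fold change over 1. CPM used TMM-scaled library sizes, and the score used log2 CPM with a prior count of 2. DESeq2 1.42.0 and limma 3.58.1 were alternatives, and each tumor was left out in turn. The procedure was tested on simulated data. Shared windows were counted over 75-base stretches of GENCODE transcripts. Promoters came from RefSeq, and 9 of the 10 members had one.

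The members, lists and tests were chosen with earlier results of these data known. Named genes were the members, Setd2, in each list the tested gene with the smallest p between genotypes, the steepest slope and the highest mean CPM, and for each member its closest gene; other named genes, and the fits within sets of tumors, were chosen after seeing the values. Some genes named by the rule are left out. The total counts of 20072236 to 51828846 keep counting error low for abundant genes, and the comparisons are limited by how far tumors differ. Replicate numbers are not stated to pair tumors. One further allele that both groups carried is not reported here.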

Additional observations from a re-analysis of the deposited data

How the results depend on the processing

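No member was called between genotypes under any normalization, filter, tool or left-out tumor that was run, and all members but Krt79 kept their slope calls on the score in every fit across both sets of tumors. Over all genes, 0 were called by edgeR on genotype alone (2311 at an unadjusted p under 0.05), 443 by DESeq2 and 372 with the score as a covariate, and leaving out each tumor in turn gave 0 to 1, the 1 without KPY-Ctrl 6. The number of members rising with the score was 9 with library size only (18.7% of all genes), without an expression filter (8.73%), in KPY-Ctrl tumors only (20.5%) and with the replicate number as a block (17.5%), 9 to 10 when each tumor was left out (26.3% to 29%), 6 within the tumors below the gap (1.06%) and 0 within those above it (0%). Krt79 was the member lost in the fits with 9, with slopes of 0.459, 0.502, 0.42 and 0.675 (block). Over all fits with a tumor left out, including those that kept the call, its slope ran from 0.393 to 0.8. Differences in slope between genotypes passed the threshold for 0 members in each fit run.

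Deviations of tumors with the same replicate number correlated at -0.664 to 0.657. The correlation was positive for replicates 1, 2 and 5, where both tumors lay on the same side of the score gap. It was negative for replicates 3, 4 and 6, where they lay on opposite sides. These correlations therefore cannot decide whether the numbers pair tumors, and the block uses the number alone. Under the block the log2 fold change of Krt79 was 0.476 and the differences in slope of Ear2 and Krt79 were 0.0689 and -0.518, and no member was called between genotypes. The other signs that turned belonged to differences that no test called, except 1 slope of Pparg. The log2 fold change of Pparg was -0.205 by limma voom and -0.376 with the covariate, which also gave -0.065 for Itgax and -0.313 for Car4, and that of Krt79 was 0.614 by limma voom. That slope was -0.0855 within the tumors below the gap. With a tumor left out, log2 fold changes ran from 0.519 (without KPY-Setd2KO 2) to 1.65 (without KPY-Ctrl 1) for Fabp4, 0.561 (without KPY-Setd2KO 4) to 2.29 (without KPY-Ctrl 1) for Marco, 0.0286 (without KPY-Setd2KO 2) to 1.1 (without KPY-Ctrl 1) for Chil3, -0.133 to 0.632 for Pparg and -0.417 to 1.04 for Krt79, and differences in slope from -0.00475 to 0.0881 for Chil3, -0.731 to 0.45 for Krt79, -0.122 to 0.0186 for Fabp4, -0.096 to 0.00178 for Ear2 and -0.0453 to 0.109 for Mrc1. The cause of these changes was not tested. With library size as the only scaling, the median log2 fold change of all genes went from 0.0304 to -0.108 and that of the members from 0.593 to 0.455, and 40.2% of all genes fell with the score, against 28.5% before. The median of the members was 0.9 with the block, 1.1 without KPY-Ctrl 1, 0.923 without KPY-Ctrl 2, 0.345, 0.353 and 0.351 without KPY-Ctrl 3, 4 and 5, and 0.216 without KPY-Setd2KO 2.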
